A study of Homo sapiens with 4 samples.

Results

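Intermediate filaments are the tough, rope-like polymers of the animal cytoskeleton, and each lineage builds them from its own genes: vimentin in mesenchymal cells, paired keratins in epithelia, neurofilaments and peripherin in neurons, nestin in neural progenitors, and lamins under the nuclear envelope of nearly all cells. In neuroblastoma, a tumour of the sympathetic lineage, vimentin marks the mesenchymal state and neurofilaments and peripherin mark the neuronal one. The 10 genes described here, VIM, NES, KRT8, KRT18, NEFL, NEFM, NEFH, INA, PRPH and LMNA, were taken as a list to span these classes, out of 17687 genes with a named probe set. Each of the 10 had 1 probe set, so its value is that probe set's value.

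The values come from 4 Affymetrix whole-transcript arrays of SK-N-AS, an established human neuroblastoma cell line. The 4 arrays form 2 groups of 2: cells given BG-P400-TAT at 30 µM for 48 h, called treated, and cells given phosphate-buffered saline for the same 48 h, called untreated. The series title describes BG-P400-TAT as a dual agent against norepinephrine transporter function and αvβ3, an integrin that binds thyroid hormone. The design text calls the arrays of a group biological replicates but does not say how their cultures were kept apart, so the p-values rest on the spread among the 4 arrays, which may be technical.

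Expression is given on the log2 scale, on which 1 unit is a 2-fold difference, and a background limit was set on each array at the 95th percentile of its negative-control probe sets. That limit was 7.19 and 7.25 on the treated arrays and 7.31 and 7.64 on the untreated arrays. Of the 21448 probe sets tested, 0 (0%) passed limma at an adjusted p of 0.05, where the lowest value was 0.948, and 1089 (5.08%) had an unadjusted p under 0.05. Untreated replicate 2 stood apart. Its median absolute log2 difference to the other arrays was 0.237 to 0.244 over all probe sets, against 0.193 to 0.208 among the pairs without it. Over the 9 filament genes above background this order did not hold: the median absolute difference was 0.058 to 0.14 in pairs with untreated replicate 2 and 0.11 to 0.18 in pairs without it. With 2 arrays a group, precision is limited throughout.

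Between 8808 (untreated replicate 2) and 9657 (treated replicate 1) of the 21448 probe sets tested were above the background limit of their array. Of the 10 filament genes, 9 were above the background limit on every array, treated and untreated, and NEFH was above it on none. Signal above background was thus present for the mesenchymal, progenitor, epithelial, neuronal and nuclear classes in the same RNA. With the limit at the 99th percentile, 5 genes were above it on both untreated arrays, VIM, NES, NEFM, INA and LMNA, and KRT8, KRT18, NEFL and PRPH were not. None of the 10 genes passed the test for a difference between treated and untreated cells, with limma adjusted p from 0.948 to 0.999. In 6 of them, VIM, KRT8, KRT18, NEFL, PRPH and LMNA, both treated arrays lay above both untreated arrays, and in no gene did both lie below. For comparison, 9960 probe sets were above background, of which 20.9% had both treated arrays above both untreated arrays and 11.5% had both below. The members' count is a description of 10 chosen genes, with no test of its own.

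**Figure D1:**
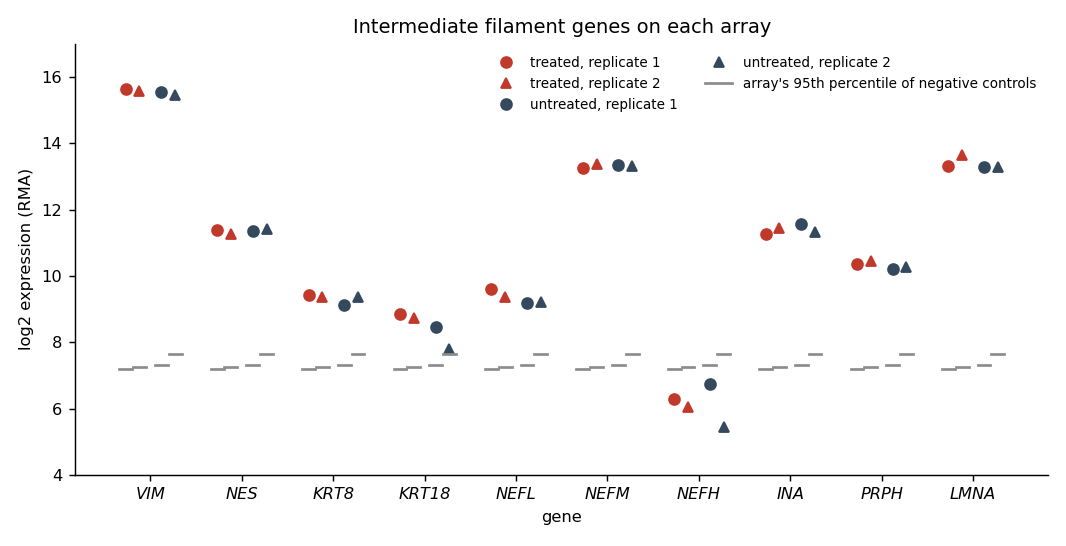
Log2 expression (RMA) of the 10 filament genes on each array, with treated arrays (red) left of untreated arrays (dark blue), circles for replicate 1 and triangles for replicate 2. Grey bars mark each array's 95th percentile of negative controls: NEFH lies under its bars on all 4 arrays, and KRT18 on untreated replicate 2 lies 0.15 above its bar.

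VIM encodes vimentin, the type III filament protein of mesenchymal cells. VIM stood at 15.64 and 15.57 in treated cells, against 15.55 and 15.45 in untreated cells, far above the background limit on all arrays. Both treated arrays were the higher ones, with a gap of 0.027 between the lower treated and the higher untreated array. The difference of VIM was 0.11 on the log2 scale (95% interval -0.32 to 0.54), which is a fold of 1.08 (interval 0.80 to 1.46; limma adjusted p = 0.994). Leaving out an array gave 0.06 (without untreated replicate 2) to 0.16 (without untreated replicate 1).

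The start region of VIM is shown because it is the mesenchymal gene of the list. It covers 250 bases before the start and 50 from it on, chr10:17227991-17228290 on the plus strand of GRCh38.p14, from RefSeq, and has 48% G and C. The capitals mark the GC box GGGCGG, which begins 46 bases before the start.
VIM: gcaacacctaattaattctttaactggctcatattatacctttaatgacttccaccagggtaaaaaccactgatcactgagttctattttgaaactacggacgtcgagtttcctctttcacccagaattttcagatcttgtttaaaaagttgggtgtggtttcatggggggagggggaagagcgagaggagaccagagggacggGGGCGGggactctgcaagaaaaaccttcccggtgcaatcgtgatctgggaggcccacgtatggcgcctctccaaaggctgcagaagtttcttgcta

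NES encodes nestin, a large type VI protein of neural progenitors that forms filaments with a partner such as vimentin. NES stood at 11.40 and 11.28 in treated cells, against 11.35 and 11.41 in untreated cells. The groups overlapped: untreated replicate 2 was the highest array and treated replicate 2 the lowest. The difference of NES was -0.04 on the log2 scale (interval -0.47 to 0.40; limma adjusted p = 0.997), and its sign turned without treated replicate 2 (0.02). SYNM, which encodes synemin, another large filament protein that needs a partner, stood at 9.66 and 9.34 in treated cells, against 8.80 and 9.01 in untreated cells. Both treated arrays of SYNM were above both untreated arrays, by 0.60 on the log2 scale between the means (interval 0.10 to 1.09). SYNM did not pass (limma adjusted p = 0.948) and was 0.43 to 0.76 with an array left out.

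Of 7 other lamin and type III to VI genes, 6 were measured, 2 were above background (SYNM and LMNB1), and none passed. SYNM was the 1 with an unadjusted limma p under 0.05 (0.0242), against 5.08% of all probe sets tested. GFAP, the filament gene of astrocytes and other glia, was below the limit on all 4 arrays, at 5.38 and 5.11 in treated cells, against 4.95 and 5.89 in untreated cells. DES, the muscle filament gene, was also below it on all arrays, at 5.68 and 5.89 in treated cells, against 5.84 and 5.76 in untreated cells. No fold is given for either gene.

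KRT8 and KRT18 encode the type II and type I keratins that pair to form the filaments of simple epithelia, and neither polymerises without a partner of the opposite type. KRT18 stood at 8.84 and 8.73 in treated cells, against 8.45 and 7.79 in untreated cells. Both treated arrays were higher, and the untreated arrays lay further apart than the treated ones, with untreated replicate 2 alone at the low end. The difference of KRT18 was 0.66 on the log2 scale (interval 0.06 to 1.27), a fold of 1.58 (interval 1.04 to 2.40), with an unadjusted limma p of 0.0364 and an adjusted p of 0.948. KRT18 was the 1 filament gene of the 10 with an unadjusted p under 0.05, against 2.49% of all probe sets above background and 5.08% of all tested. The 2.49% depended on the fit. When only the 9960 probe sets above background were fitted, 509 of them had an unadjusted limma p under 0.05, and that of KRT18 was 0.0192. Of the 9960 above background, 99.3% had a smaller absolute difference. The size of this value rested on single arrays: the difference was 0.33 without untreated replicate 2 and 0.99 without untreated replicate 1, where the adjusted p was 0.331. The unadjusted p of KRT18 was 0.00369 in limma without untreated replicate 1, and 0.183, 0.12 and 0.0755 without untreated replicate 2, treated replicate 1 and treated replicate 2.

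KRT8 stood at 9.43 and 9.38 in treated cells, against 9.11 and 9.35 in untreated cells. Both treated arrays were higher, the lower of them by 0.034. The difference of KRT8 was 0.18 on the log2 scale (interval -0.28 to 0.63; limma adjusted p = 0.979), and it was 0.059 without untreated replicate 1 and 0.30 without untreated replicate 2. Within each array, KRT18 minus KRT8 was -0.59 and -0.65 in treated cells, against -0.65 and -1.56 in untreated cells. Untreated replicate 2 stood alone, and the other 3 arrays lay between -0.654 and -0.594. The shift of this balance was 0.48 on the log2 scale, with an exact permutation p of 0.333 (two-sided), the smallest that 2 arrays against 2 can give. The shift rested on untreated replicate 2: without that array it was 0.032, and without untreated replicate 1 it was 0.93.

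**Figure D2:**
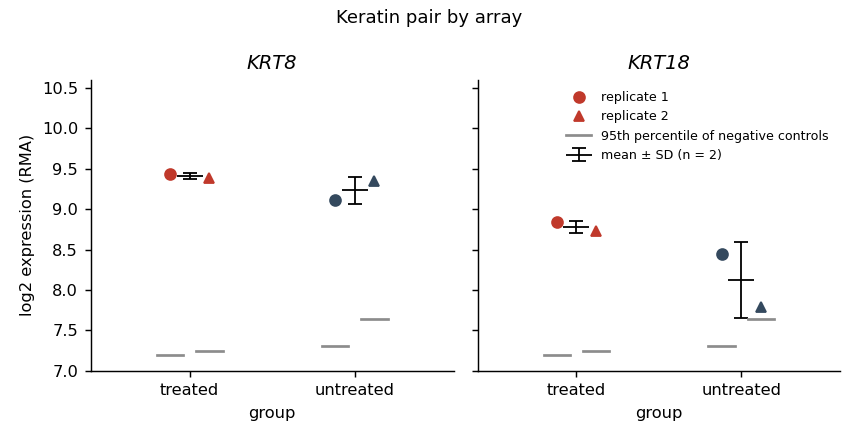
Log2 expression (RMA) of KRT8 and KRT18 in treated (left) and untreated (right) cells, with circles for replicate 1, triangles for replicate 2, crosses for the mean ± SD of the 2 arrays and grey bars for each array's 95th percentile of negative controls. On untreated replicate 2, KRT18 has its lowest value, 7.79, while KRT8, at 9.35, is within 0.034 of the lower treated array.

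The rest of the epithelial filament system was mostly at background. Of 31 other keratin genes, 25 were measured, and 2 of them, KRT7 and KRT76, were above the limit by their mean over the 4 arrays. None of the 25 passed, and 2 had an unadjusted p under 0.05, both of them below the limit, against 5.08% of all probe sets tested. The median log2 difference of the 25 was -0.09, or -0.32 to -0.013 with an array left out. KRT7, a type II keratin of simple epithelia, stood at 7.15 and 7.52 in treated cells, against 7.56 and 7.88 in untreated cells, a log2 difference of -0.39 (interval -0.91 to 0.14; limma adjusted p = 0.948). KRT7 was above its array's limit on 3 of the 4 arrays, and the value was -0.57 to -0.20 with an array left out. KRT76, a keratin of oral epithelium, stood at 6.84 and 7.07 in treated cells, against 6.71 and 7.79 in untreated cells, and was above the limit on 1 array, untreated replicate 2. KRT19, the usual type I partner in ducts and glands, was below the limit on all 4 arrays, at 5.09 and 5.36 in treated cells, against 5.30 and 5.73 in untreated cells.

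Markers of epithelial cells other than keratins were set beside the pair. Of 9 measured, 2 were above the limit by their mean, CLDN4 on all 4 arrays and CLDN7 on 1. The adhesion genes CDH1 and EPCAM were below it on every array. The summed level of the 9 markers was 9.63 and 9.49 in treated cells, against 9.45 and 9.64 in untreated cells on the log2 scale, so the groups overlapped. Of the 9, 2 had a higher treated mean, and 1 to 5 with an array left out. The part of these markers in the KRT18 values was not tested. KRT8 and KRT18 have many processed pseudogenes, 52 and 68 by name in the RefSeq gene table, and how far these share the probes was not tested. In these bulk samples, fewer cells of a type and less RNA per cell cannot be told apart.

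The neurofilament triplet, NEFL, NEFM and NEFH, encodes the light, medium and heavy subunits of the axonal filament. NEFL, the light subunit on which the polymer is built, stood at 9.62 and 9.37 in treated cells, against 9.19 and 9.22 in untreated cells. Both treated arrays of NEFL were higher, and the treated arrays differed from each other by more than the untreated ones. The difference was 0.29 on the log2 scale (interval -0.16 to 0.75), a fold of 1.22 (interval 0.893 to 1.68; limma adjusted p = 0.949). It was 0.17 without treated replicate 1 and 0.42 without treated replicate 2.

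NEFM, the medium subunit, stood at 13.27 and 13.39 in treated cells, against 13.34 and 13.33 in untreated cells. The treated arrays lay on either side of the untreated ones. The difference of NEFM was -0.01 on the log2 scale (interval -0.44 to 0.42; limma adjusted p = 0.999), and its sign turned without treated replicate 1 (0.05). NEFH, the heavy subunit of mature axons, stood at 6.30 and 6.06 in treated cells, against 6.74 and 5.45 in untreated cells. All 4 values of NEFH were below the background limit, and the untreated ones spanned the treated ones, so the difference of NEFH, though plotted and counted with the others, is one of values below the limit and is not read as a change.

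INA encodes α-internexin, which joins the triplet in central neurons, and PRPH encodes peripherin, the type III filament protein of peripheral and sympathetic neurons. INA stood at 11.27 and 11.45 in treated cells, against 11.58 and 11.32 in untreated cells, with interleaved values. The difference of INA was -0.08 on the log2 scale (interval -0.56 to 0.39; limma adjusted p = 0.997), and its sign turned without untreated replicate 1 (0.046) or treated replicate 1 (0.0046). PRPH stood at 10.36 and 10.44 in treated cells, against 10.21 and 10.26 in untreated cells. Both treated arrays of PRPH were higher, by a gap of 0.096. The difference of PRPH was 0.16 on the log2 scale (interval -0.27 to 0.59; limma adjusted p = 0.979), and it stayed between 0.12 and 0.21 with an array left out.

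The start region of PRPH is shown beside that of VIM because these are the type III genes above background, one neuronal and one mesenchymal. It lies at chr12:49294897-49295196 on the plus strand of GRCh38.p14, from RefSeq, with 67% G and C. The capitals mark the TATA box TATAAA, which begins 31 bases before the start.
PRPH: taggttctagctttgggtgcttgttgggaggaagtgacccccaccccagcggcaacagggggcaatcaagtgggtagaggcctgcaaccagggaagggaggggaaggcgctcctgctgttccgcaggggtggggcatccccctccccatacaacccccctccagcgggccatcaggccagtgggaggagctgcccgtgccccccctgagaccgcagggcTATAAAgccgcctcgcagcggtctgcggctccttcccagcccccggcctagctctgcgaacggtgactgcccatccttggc
On both strands, 5 motifs were searched in the 8 start regions examined, of VIM, NES, KRT8, INA, PRPH and LMNA (3 starts), and in 35116 start regions of the same length. Start regions of KRT18 and of the triplet NEFL, NEFM and NEFH were not among the 8, so the counts do not cover these genes. TATAAA was found in 1 of the 8, that of PRPH, against 11.5% of all. GGGCGG was found in 6 of the 8, those of VIM, NES, INA and the 3 of LMNA, against 45% of all. The CCAAT box was found in 1 of the 8, a start of LMNA, against 34.6% of all. The AP-1 motif TGANTCA was found in none of the 8, against 7.71% of all start regions. The E box CACGTG was likewise found in none of the 8, against 7.26% of all. A match is a run of letters, and which start these cells use was not measured.

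LMNA encodes lamins A and C, the nuclear filament proteins of differentiated cells, 2 splice forms that 1 probe set does not separate. LMNA stood at 13.33 and 13.65 in treated cells, against 13.30 and 13.30 in untreated cells. Both treated arrays were higher, but treated replicate 1 lay only 0.029 above the higher untreated array. The difference of LMNA was 0.19 on the log2 scale (interval -0.28 to 0.66; limma adjusted p = 0.979), and it was 0.03 without treated replicate 2 and 0.35 without treated replicate 1. LMNB1, which encodes lamin B1, the lamin that stays farnesylated, stood at 12.18 and 12.03 in treated cells, against 12.11 and 12.23 in untreated cells. The groups of LMNB1 overlapped, with a log2 difference of -0.06 (interval -0.51 to 0.38; limma adjusted p = 0.997), which was -0.14 without treated replicate 1 and 0.011 without treated replicate 2. LMNB2 had no named probe set here.

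Across the list, 8 of the 9 filament genes above background had a 95% interval inside 2-fold on either side, KRT18 being the exception at its upper end, against 95.3% of all probe sets above background. The median log2 difference of the 10 genes was 0.14, and 0.16 without NEFH, against 0.038 for all probe sets above background and -0.0046 for all tested. Of the 9 above background, 6 had a higher treated mean and 3 a lower one, against a share of 58.6% with a higher treated mean among all probe sets above background.

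**Figure D3:**
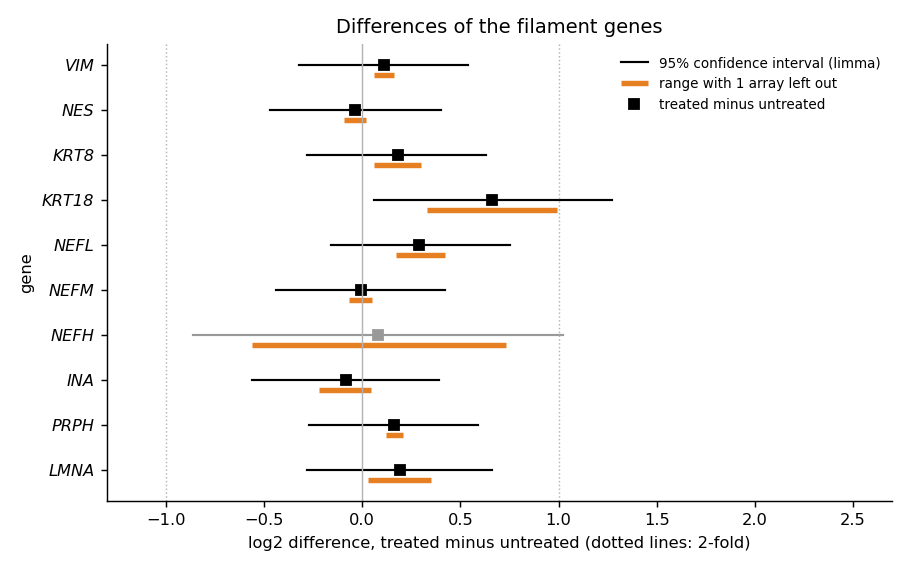
Log2 difference (treated minus untreated) of the 10 filament genes, with squares for the difference, black lines for the 95% interval of the limma fit and orange bars for the range with 1 array left out; NEFH, in grey, is below background. The intervals of KRT18 (0.06 to 1.27) and of NEFH (-0.86 to 1.02) pass the dotted 2-fold line, and the orange bars of NES, NEFM, NEFH and INA cross 0.

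Genes that anchor or turn over filaments were described as a list of 18, of which 17 were measured and 9 were above background. None passed the test, and 3 had an unadjusted p under 0.05 (PLEC, DST and FAM83H, the last below the limit), against 5.08% of all probe sets tested. Of the 9, 4 had a higher and 5 a lower treated mean, against 58.6% higher among all probe sets above background. The median log2 difference was -0.17 over the 17 and -0.027 over the 9. With an array left out, the median of the 17 was -0.14 to -0.013. PLEC encodes plectin, the large linker that binds vimentin and keratins to other cell structures. PLEC stood at 9.30 and 9.15 in treated cells, against 8.78 and 8.37 in untreated cells, a log2 difference of 0.65 (interval 0.14 to 1.16; limma adjusted p = 0.948). Both treated arrays of PLEC were higher, and the value was 0.45 to 0.85 with an array left out.

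DST, which encodes dystonin, a plakin that links filaments to microtubules and actin, lay the other way. DST stood at 11.92 and 11.61 in treated cells, against 12.31 and 12.30 in untreated cells, a log2 difference of -0.54 (interval -1.01 to -0.07; limma adjusted p = 0.948). Its relative MACF1 stood at 10.70 and 10.56 in treated cells, against 11.10 and 10.87 in untreated cells, a log2 difference of -0.36 (interval -0.81 to 0.10; limma adjusted p = 0.948). Both treated arrays were the lower ones in both genes. With an array left out, DST was -0.70 to -0.38 and MACF1 -0.47 to -0.24. DSP, the desmosomal plakin that holds keratin at cell junctions, was below the limit on every array, as were the desmosomal genes DSG2, DSC2, PKP1 and PKP3. The plaque genes JUP and PKP4 were above it on all 4 arrays and PKP2 on 3.

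Partners of the lamins, the nuclear envelope, nucleus-to-cytoskeleton and lamin-processing genes, formed a list of 18. Of 17 measured, 13 were above background, 7 with a higher and 6 with a lower treated mean, against 58.6% higher among all probe sets above background. None passed, 0 had an unadjusted p under 0.05, and the median log2 difference of the 17 was 0.059 (0.04 to 0.098 with an array left out). EMD, which encodes the lamin-binding protein emerin, stood at 12.96 and 13.40 in treated cells, against 12.84 and 13.00 in untreated cells, a log2 difference of 0.26 (interval -0.26 to 0.78; limma adjusted p = 0.963). SUN1, the inner-membrane anchor that ties lamins to the cytoskeleton, had a log2 difference of 0.23 (interval -0.24 to 0.71), and FNTB, a subunit of the enzyme that farnesylates lamins, 0.21 (interval -0.37 to 0.78). With an array left out, EMD was 0.04 to 0.48, SUN1 0.071 to 0.40 and FNTB -0.066 to 0.48. ZMPSTE24, the protease that matures prelamin A, stood at 12.92 and 12.70 in treated cells, against 13.04 and 12.68 in untreated cells; it was named after its values were seen.

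Among 16 measured kinase, phosphatase and motor genes that phosphorylate or carry filaments, 14 were above background. Of these, 10 had a higher and 4 a lower treated mean, against 58.6% higher among all probe sets above background. None of the 16 passed, and 0 had an unadjusted p under 0.05. Their median log2 difference was 0.053, and it was -0.035 without untreated replicate 2 and 0.17 without untreated replicate 1. PRKCA, protein kinase C alpha, stood at 11.30 and 11.14 in treated cells, against 10.85 and 10.89 in untreated cells, a log2 difference of 0.35 (interval -0.09 to 0.79; limma adjusted p = 0.948). PLK1, a mitotic kinase, had a log2 difference of 0.17 (interval -0.28 to 0.61), and KIF5A, a neuronal kinesin that carries neurofilaments, 0.14 (interval -0.29 to 0.57). PLK1 was 0.06 without untreated replicate 2 and 0.27 without untreated replicate 1, and KIF5A was above its array's limit on 3 of the 4 arrays.

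**Figure D4:**
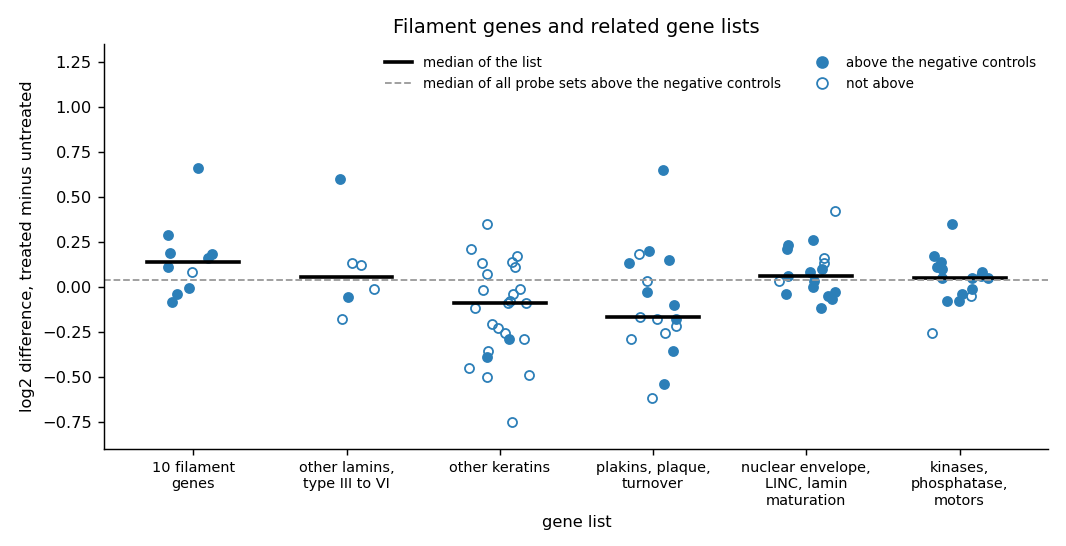
Log2 difference (treated minus untreated) of each gene in the filament list and in 5 lists of related genes, filled where the gene is above the negative controls and open where it is not, with a black bar for the list's median and a dashed line at 0.038, the median of all probe sets above the negative controls. SYNM at 0.60 and PLEC at 0.65 lie near KRT18 at 0.66, and most keratins are open circles.

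The cell state that the filament classes mark was checked against other markers. All 9 measured mesenchymal markers and 7 of 9 adrenergic markers were above background by their mean over the 4 arrays. TH and DBH, the catecholamine synthesis genes, were not above the limit on any array. Of the mesenchymal markers, 8 of 9 had a higher treated mean, and 6 to 8 with an array left out. The share among all probe sets above background was 58.6%, and none of the 9 passed. The 1 with an unadjusted limma p under 0.05 was THY1 (0.0153), against 5.08% of all probe sets tested. THY1 had a log2 difference of 0.65 (interval 0.17 to 1.13), and 0.47 to 0.83 with an array left out. COL1A1, a collagen gene, was the exception in direction, at -0.28, with both treated arrays below both untreated arrays. COL1A1 was above its array's limit on 2 of the 4 arrays. The 9 mesenchymal markers had a median log2 difference of 0.38 (0.12 without untreated replicate 2 and 0.55 without untreated replicate 1). The log2 of their summed level was 13.79 and 13.78 in treated cells, against 13.52 and 13.42 in untreated cells. The brightest genes weigh most in such a sum. The part of these markers in the VIM values was not tested. For the adrenergic markers, the log2 of the summed level was 13.72 and 13.71 in treated cells, against 13.78 and 13.35 in untreated cells, and overlapped between the groups. Of these 9 adrenergic markers, 6 had a higher treated mean (3 to 8 with an array left out) and none passed. Their median log2 difference was 0.12 (-0.078 without untreated replicate 2 and 0.25 without untreated replicate 1). The 1 with an unadjusted limma p under 0.05 was PHOX2A (0.0228). The sympathetic lineage factor PHOX2A had a log2 difference of 0.58 (interval 0.11 to 1.05) and GATA2 of 0.42 (interval -0.08 to 0.93). Both had a limma adjusted p of 0.948, with both treated arrays the higher ones. With an array left out, PHOX2A was 0.42 to 0.73 and GATA2 0.22 to 0.62. The 3 adrenergic markers with a lower treated mean were CHGB (-0.04), CHGA (-0.02) and TH (-0.18). TH was below the limit, with both treated arrays the lower ones. The 3 measured Schwann cell markers and the 5 endothelial markers were below the limit on every array.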

How the data were processed

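The authors deposited log2 expression values per probe set; per the submitters' processing notes RMA was used, with Transcriptome Analysis Console 4.0.1.36 also listed, and the log2 scale was read from the values. RMA's quantile step would remove a change shared by most genes. Of 24351 probe sets, 2903 controls were left out, and 21448 were tested without a filter on dim signal; 17709 had 1 symbol in the platform annotation, 0 several, and 3739 are unnamed here. All 10 filament genes matched RefSeq by gene identifier. For the probe sets, the genome build was not given in the sources used here. "Above background" means a mean over the 4 arrays above 6.96, the 95th percentile of such means over 612 negative-control sets, or, for 1 array, above its own percentile. Groups were compared with limma 3.58.1 in R 4.3.3 (lmFit, eBayes, group as the only term, 2 residual and 4.9 prior degrees of freedom, two-sided, Benjamini-Hochberg adjustment over all 21448). The fit was also run on simulated data, with independent normal noise and spreads drawn from the fit's own estimates. That run could not test the effect of an array that stands apart. Related lists name the 3 genes of smallest p above background, none having passed, and fixed partners of the members. The members and lists were chosen with earlier results of these data known. Other list genes and markers named in the text were picked after their values were seen.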

Additional observations from a re-analysis of the deposited data

How the results depend on the processing

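No filament gene, related gene or other probe set passed in the 12 alternative fits or at an adjusted p under 0.1 (0 in each); with 3 arrays a fit has 1 residual degree of freedom and the lone array is assumed to vary like the other group. Of 119 recomputed values of the filament genes, 113 kept their direction and 6 turned, all with an array left out. A change of the prior variance, of the probe sets fitted or the replicate block cannot alter a difference, so agreement there was fixed in advance. Only the left-out arrays and the normalizations could turn a value. With an array left out, NES was -0.095 to 0.02, NEFM -0.065 to 0.05 and INA -0.22 to 0.046 (0.0046 without treated replicate 1). NEFH, below background, was -0.56 to 0.73 (-0.036 without treated replicate 1). The cause of the turns was not tested. The replicate block, for which the labels give only a shared number, called 0 probe sets and 0 filament genes; the deviations of same-numbered arrays from their group means correlated at -0.000849 over all probe sets. At the 99th percentile of the negative controls in place of the 95th, 5 genes were above background in untreated cells, in place of 9: VIM, NES, NEFM, INA and LMNA. At the 75th percentile there were 10, after quantile normalization 9, and with 1 limit for all arrays, chosen after seeing the data, 9.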

Other observations

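PTPRC, which encodes the leukocyte surface phosphatase CD45, was above background on all 4 arrays, at 12.71 and 12.57 in treated cells, against 12.75 and 12.80 in untreated cells. The other 4 measured leukocyte markers, CD3E, CD14, LYZ and CSF1R, were below the limit on every array. PTPRC had 1 probe set here, a log2 difference of -0.14 (interval -0.57 to 0.30) and a limma adjusted p of 0.985, and the difference was -0.21 without treated replicate 1 and -0.069 without treated replicate 2; it was singled out after its values were seen.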
